A study of Mus musculus with 10 samples.

Results

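The middle-locus kappa V genes are the immunoglobulin kappa variable (V) genes whose position number, the number after the first hyphen of the gene name, lies from 36 to 90, without family IGKV1. Kappa sequences were taken where every gene named in the V call met that rule. They made up 35789 of 103954 kappa sequences, with 2427 to 4399 in each mouse, or 30.8% to 37.2% of that mouse's kappa sequences. These calls named 48 single V genes and 18 joint sets of genes that the aligner could not separate, of 118 single genes and 33 joint sets in all kappa sequences. All 118 gene names matched the RefSeq gene table for GRCm38.p6, in which 9 of the 48 are V segment pseudogenes. The genes belong to families IGKV4, IGKV12, IGKV5, IGKV13 and IGKV18.

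The mice were wild-type C57BL/6 animals that carried the mouse glioma line GL261 in the brain. One group was given an isotype IgG, the control antibody (5 mice), and the other an antibody against CTLA-4, an inhibitory receptor of T cells (5 mice). The deep cervical lymph nodes, which drain the head and neck, were taken on day 20, dissociated, and their total RNA was made into 1 B cell receptor library per mouse. The labels used here give no antibody dose, antibody clone or age. Both groups carried the tumour, so no group shows these nodes without one. The tables hold receptor sequences alone, and the node's cell types could not be checked against other markers.

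A kappa chain is made when a B cell precursor joins 1 V gene to 1 joining (J) gene on the same chromosome. V genes are numbered from the J end of the locus, so the genes described here lie between the J-near and the far ends, and V genes occur in both orientations relative to J. The join forms the third complementarity-determining region (CDR3), a loop that contacts antigen. Kappa joins often carry few added bases, so the same CDR3 can arise in many mice.

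The junction sequences below are shown because these chains held the highest counts and recurred in every mouse. A clonotype here is a V call, a J call and the junction's nucleotides, within 1 mouse. The lines below give the junction, from the conserved cysteine codon to the conserved phenylalanine codon, 5′ to 3′, of the productive member clonotype with the highest deposited count in each mouse. Capitals mark the bases that the authors' aligner gave to the J gene and not to the V gene.

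isotype 1, IGKV4-61 with J1: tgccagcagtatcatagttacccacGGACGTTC

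isotype 2, IGKV4-50 with J1: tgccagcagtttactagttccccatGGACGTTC

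isotype 3, IGKV5-39 with J1: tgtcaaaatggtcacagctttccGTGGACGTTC

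isotype 4 and isotype 5, IGKV12-44 with J2: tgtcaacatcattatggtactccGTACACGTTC

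anti-CTLA-4 1, IGKV4-55 with J5: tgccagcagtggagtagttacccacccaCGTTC

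anti-CTLA-4 2, IGKV12-46 with J4: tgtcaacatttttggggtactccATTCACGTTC

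anti-CTLA-4 3, IGKV12-41 with J2: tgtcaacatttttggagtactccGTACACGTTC

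anti-CTLA-4 4, IGKV4-59 with J5: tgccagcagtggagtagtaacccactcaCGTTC

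anti-CTLA-4 5, IGKV4-55 with J5: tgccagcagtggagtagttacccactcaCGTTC

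Each of these junctions encodes a CDR3 of 9 residues, and each was found with the same V and J call in 10 of 10 mice. The clonotypes of anti-CTLA-4 mice 1 and 5 use the same V and J genes and differ in the codon of the residue before the last of the CDR3.

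A second set of junctions shows genes whose CDR3s start with the same residues, and 1 gene with a short CDR3. Each is the junction of that gene, found in all mice, with the highest total count. Capitals have the same meaning.

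IGKV4-57-1 with J2: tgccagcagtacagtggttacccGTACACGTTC

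IGKV4-62 with J2: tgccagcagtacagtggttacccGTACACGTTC

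IGKV5-43 with J4: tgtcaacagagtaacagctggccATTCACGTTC

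IGKV5-45 with J5: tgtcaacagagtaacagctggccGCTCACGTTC

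IGKV5-48 with J5: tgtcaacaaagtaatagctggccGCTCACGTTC

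IGKV13-84 with J4: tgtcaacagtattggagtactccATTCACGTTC

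IGKV13-85 with J1: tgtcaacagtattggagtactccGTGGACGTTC

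IGKV4-80 with J1: tgccatcagtggagtagttGGACGTTC

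The junctions of IGKV4-57-1 and IGKV4-62 are identical, so that their V calls rest on bases before the junction, whereas that of IGKV5-48 differs from those of IGKV5-43 and IGKV5-45 in V bases within it. Among the members, 4 genes (IGKV4-59, IGKV4-68, IGKV4-72 and IGKV4-73) share the CDR3 start QQWSSNP in their leading public junction, 3 share QQSNSWP (IGKV5-43, IGKV5-45 and IGKV5-48) and 3 share QQYSGYP (IGKV4-57-1, IGKV4-62 and IGKV4-78). The last line, IGKV4-80, encodes a CDR3 of 7 residues and is shown because that gene had the shortest CDR3s.

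Total deposited counts per mouse ran from 382184 to 790139 over all chains, and counts on member sequences from 66896 to 183874. Members gave 13310 productive clonotypes, 995 to 1608 per mouse, of 34845 productive kappa clonotypes. Of these, 24.2% to 36.9% in each mouse had a count of 1. The libraries shared much of their content. The 13310 clonotypes held 5218 distinct combinations of V, J and junction, of which 401 were found in all 10 mice and 3350 in 1 mouse. Combinations found in all mice made up 30.8% ± 4.84 (SD, n = 10 mice) of a mouse's member clonotypes and 88.7% ± 5.04 of its member counts. In each mouse, 39.1% to 71.2% of member clonotypes had more counts in another mouse. Of 84 full-length member sequences with a count of at least 1000, 59 were found unchanged in all 10 mice, and 32 of the 74 outside the last-numbered library had their second-highest count in the next-numbered one. Whether such sharing came from separate rearrangements or from exchange between libraries was not tested, and main results are also given below with such clonotypes left out where that moved them.

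Middle-locus genes took a nearly constant share of the kappa clonotypes. Their share of productive kappa clonotypes was 38.6%, 37.6%, 37.3%, 39.3% and 38.5% in isotype mice 1 to 5, and 37.3%, 39.1%, 36.3%, 39.2% and 38.5% in anti-CTLA-4 mice 1 to 5. The group means were 38.3% ± 0.809 (SD, n = 5) and 38.1% ± 1.24 (SD, n = 5), and the groups overlapped. By deposited count the share was far less even: 32.7%, 24.7%, 23.4%, 45.0% and 33.8% of productive kappa counts in the isotype mice, and 50.1%, 31.0%, 19.3%, 34.4% and 41.9% in the anti-CTLA-4 mice. The groups overlapped in counts as well, at 31.9% ± 8.66 and 35.3% ± 11.6 (SD, n = 5 each). In bulk RNA of a whole node, more B cells with a given gene and more RNA per cell, as in antibody-secreting cells, cannot be told apart.

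IGKV4, the largest kappa family in this stretch of the locus, held 61.0% ± 1.65 (SD, n = 10) of member clonotypes. IGKV12 held 18.7% ± 1.48, IGKV5 12.5% ± 0.969, IGKV13 7.53% ± 0.986, and IGKV18, with a single gene here, 0.257% ± 0.139. By count, IGKV4 ranged from 15.2% to 88.4% of member counts between mice and IGKV12 from 7.10% to 68.7%, so that neither led in every mouse. The means by count were 46.9% ± 21.8 for IGKV4, 33.7% ± 17.3 for IGKV12, 12.5% ± 6.86 for IGKV5 and 6.95% ± 3.46 for IGKV13.

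No single gene dominated the clonotypes. IGKV12-44 was highest with a mean of 5.98% ± 1.16 of member clonotypes (SD, n = 10), followed by IGKV4-59 at 5.65% ± 0.603, IGKV4-55 at 5.51% ± 0.966 and IGKV4-72 at 5.50% ± 0.957. These 4 genes did not differ beyond their spread. IGKV12-46 (4.74%), IGKV4-57 (4.36%), IGKV13-84 (4.34%), IGKV5-43 (4.24%) and IGKV12-41 (4.04%) came next. In all, 32 single genes had a mean of at least 1%. Genes close in position differed in use: IGKV5-43 at 4.24% lies near IGKV5-45 at 1.17%, and IGKV4-72 at 5.50% next to IGKV4-73 at 1.18% and IGKV4-71 at 0.565%. The rarest named genes with productive clonotypes included IGKV12-66, a pseudogene with 1 productive clonotype, and IGKV13-82, a pseudogene with 1. IGKV5-40-1, also a pseudogene, gave 2 sequences and 0 clonotypes.

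**Figure D1:**
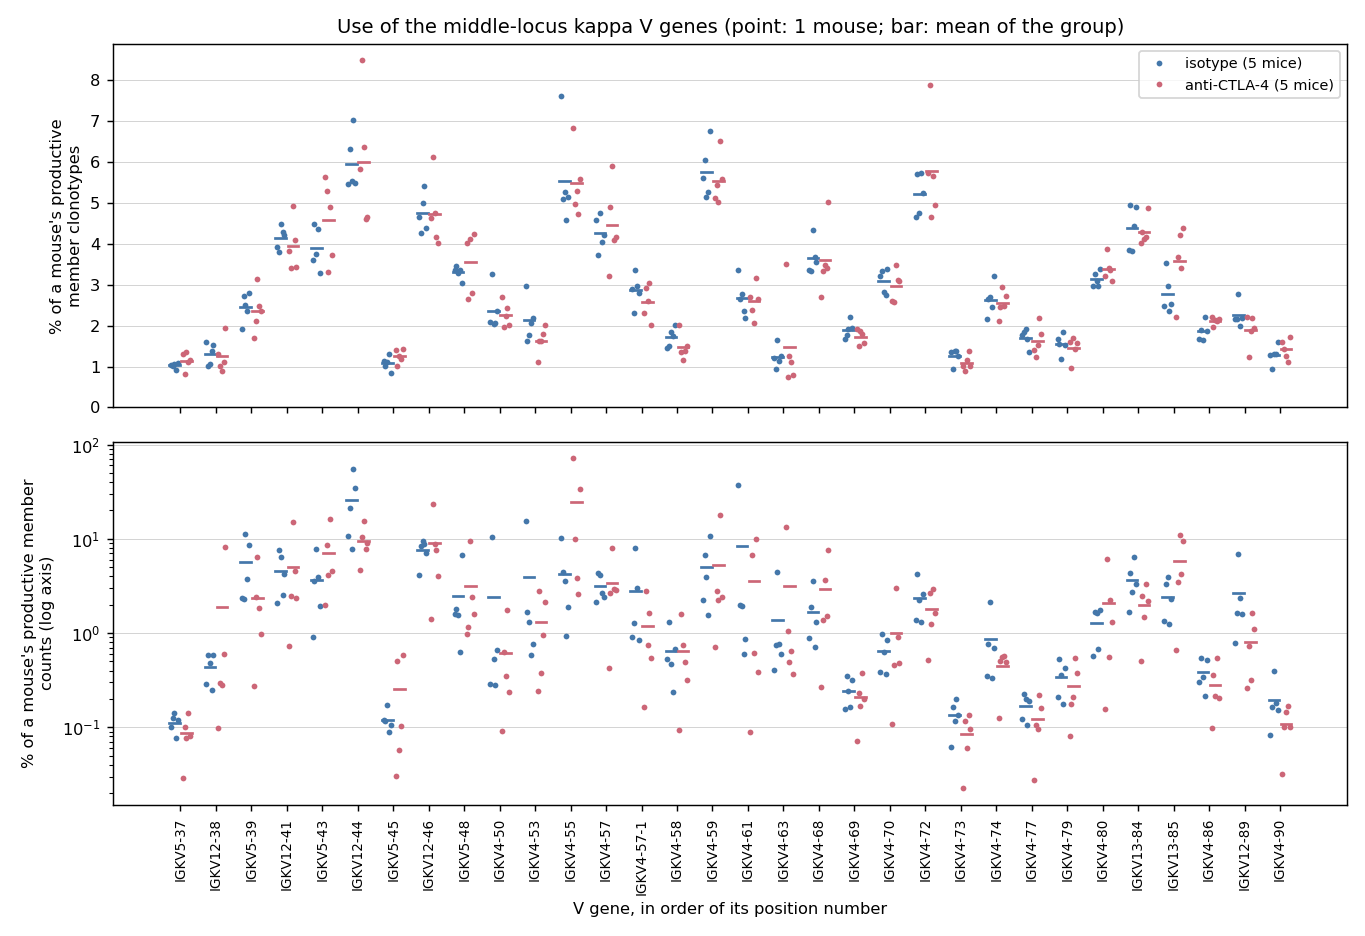
Share of each of the 32 member genes with a mean of at least 1%, in order of position; upper panel, percent of the mouse's productive member clonotypes, lower panel, percent of its productive member counts on a log axis; each point is a mouse and the colours are the isotype and anti-CTLA-4 groups. The clonotype shares of IGKV4-55 run from 4.59% to 7.62% and its count shares from 0.936% to 71.8%.

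The same genes spread widely by count. IGKV12-44 took 10.8%, 21.1%, 7.77%, 54.6% and 34.4% of member counts in isotype mice 1 to 5, and 4.62%, 10.4%, 15.5%, 7.71% and 8.94% in anti-CTLA-4 mice 1 to 5. Isotype mice 2, 4 and 5 lay above every anti-CTLA-4 mouse, and isotype mice 1 and 3 overlapped with that group. IGKV4-55 took 10.2%, 4.48%, 3.54%, 0.936% and 1.89% in the isotype mice, and 71.8%, 9.98%, 3.80%, 2.62% and 33.6% in the anti-CTLA-4 mice. Its high values were those of anti-CTLA-4 mice 1 and 5, and the groups overlapped. IGKV4-61 held 36.9% of member counts in isotype mouse 1 and 0.0888% to 10.0% in the other 9 mice. In contrast, IGKV4-72 was among the 4 most used genes by clonotype but held 0.523% to 4.27% of counts, with no mouse far from the others.

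The comparison of the groups asked whether CTLA-4 blockade went with a different use of these genes. edgeR's quasi-likelihood test on clonotype numbers was fitted over 90 kappa V calls, of which 36 were members. No gene passed a Benjamini-Hochberg adjusted p of 0.05, among members (0 of 36) or over all calls (0 of 90, or 0%). At an unadjusted p under 0.05 there were 3 calls of 90 (3.33%), and 1 of 36 members. DESeq2 also called 0 genes, with 3 of 135 at an unadjusted p under 0.05 and 0 of 57 members. The shares of the groups did not separate without overlap for any of the 90 calls (0%). Of the 36 members, 19 had a higher and 17 a lower fitted level after anti-CTLA-4, with a median log2 fold change of 0.0052 against 0.012 over all 90 calls. A further 21 productive member calls, none with more than 85 clonotypes, were below the filter on low numbers. Because each mouse gave 1 library, these p-values measure the spread between these mice and their libraries.

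The member with the smallest p was IGKV13-85. It made up 2.49%, 3.53%, 2.97%, 2.37% and 2.53% of member clonotypes in isotype mice 1 to 5, and 2.21%, 3.67%, 4.21%, 3.42% and 4.38% in anti-CTLA-4 mice 1 to 5. In the anti-CTLA-4 group 3 mice were above every isotype mouse and mouse 1 was below all of them. Its log2 fold change was 0.41 with an SE of 0.175 (edgeR adjusted p = 0.888), the 1 member with an unadjusted p under 0.05. With 1 mouse left out at a time the edgeR adjusted p ran from 0.278 to 0.998. IGKV5-43 (log2 fold change 0.27) and IGKV4-86 (0.22) had the next smallest p among those with a higher level, both with an edgeR adjusted p of at least 0.888. IGKV4-53 (-0.29), IGKV12-89 (-0.24) and IGKV4-58 (-0.19) had the smallest p among those with a lower level, and they did not pass either. IGKV4-86 spanned 1.65% to 2.22% of member clonotypes over all 10 mice. Fitted on counts in place of clonotypes, the log2 fold change of IGKV4-58 was 0.47 and that of IGKV4-86 was -0.0065, the opposite sign in each.

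Not every rearranged gene can give a chain. A clonotype was called productive where the deposited mark said so, and that mark did not exclude stop codons in the V region before the junction. Of the non-productive member clonotypes, 95.4% had a junction out of frame. Over 20016 member clonotypes the productive share was 67.0% ± 3.87 (SD, n = 10 mice). Counting error alone is smaller, since in isotype mouse 1 the share of 68.3% has a Wilson 95% interval of 66.1% to 70.4%, and the interval covers counting error only.

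Productive shares differed widely between genes. Among genes with at least 500 clonotypes, IGKV4-77, a pseudogene, was lowest with 32.5% of 692 clonotypes, or 32.2% ± 3.18 over mice (SD, n = 10). IGKV4-72 was highest with 79.6% of 925, or 79.6% ± 3.27, and the lowest mouse of IGKV4-72 (73.5%) lay far above the highest of IGKV4-77 (36.5%). Of the smaller genes, IGKV4-73 had 38.8% of 405 clonotypes and IGKV4-69 48.7% of 495. IGKV4-74 had 88.0% of 392 and IGKV4-57-1 88.6% of 412. IGKV4-73 and IGKV4-74 are neighbours by number, and both are listed by RefSeq as V segments and not as pseudogenes. IGKV4-62 had 91.5% of 106 clonotypes.

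The V sequence itself bore stop codons in a few genes. A stop codon before the junction was present in 98.5% of the IGKV4-77 sequences, 97.2% of IGKV4-75 and 87.4% of IGKV12-40, and in all 14 sequences of IGKV13-82 and all 13 of IGKV4-83. All 5 are listed as pseudogenes. In the other genes the share was at most 7.64%, the value of IGKV12-44. IGKV4-56, also listed as a pseudogene, carried such a stop in 0.901% of 111 sequences and had 43.4% productive clonotypes. In total 423 clonotypes marked productive (3.18%) carried a stop in the V region, so they would not encode a whole chain. They were kept, and counting them as non-productive lowered the difference in productive share from the other kappa genes, given next, to 2.54 percentage points, which still passed the test. Marks of a shifted reading frame in the V region were not part of that count. Such marks stood in 26.9% of IGKV13-84 sequences and in at most 11.9% (IGKV4-63) in the other genes with at least 50 clonotypes.

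**Figure D2:**
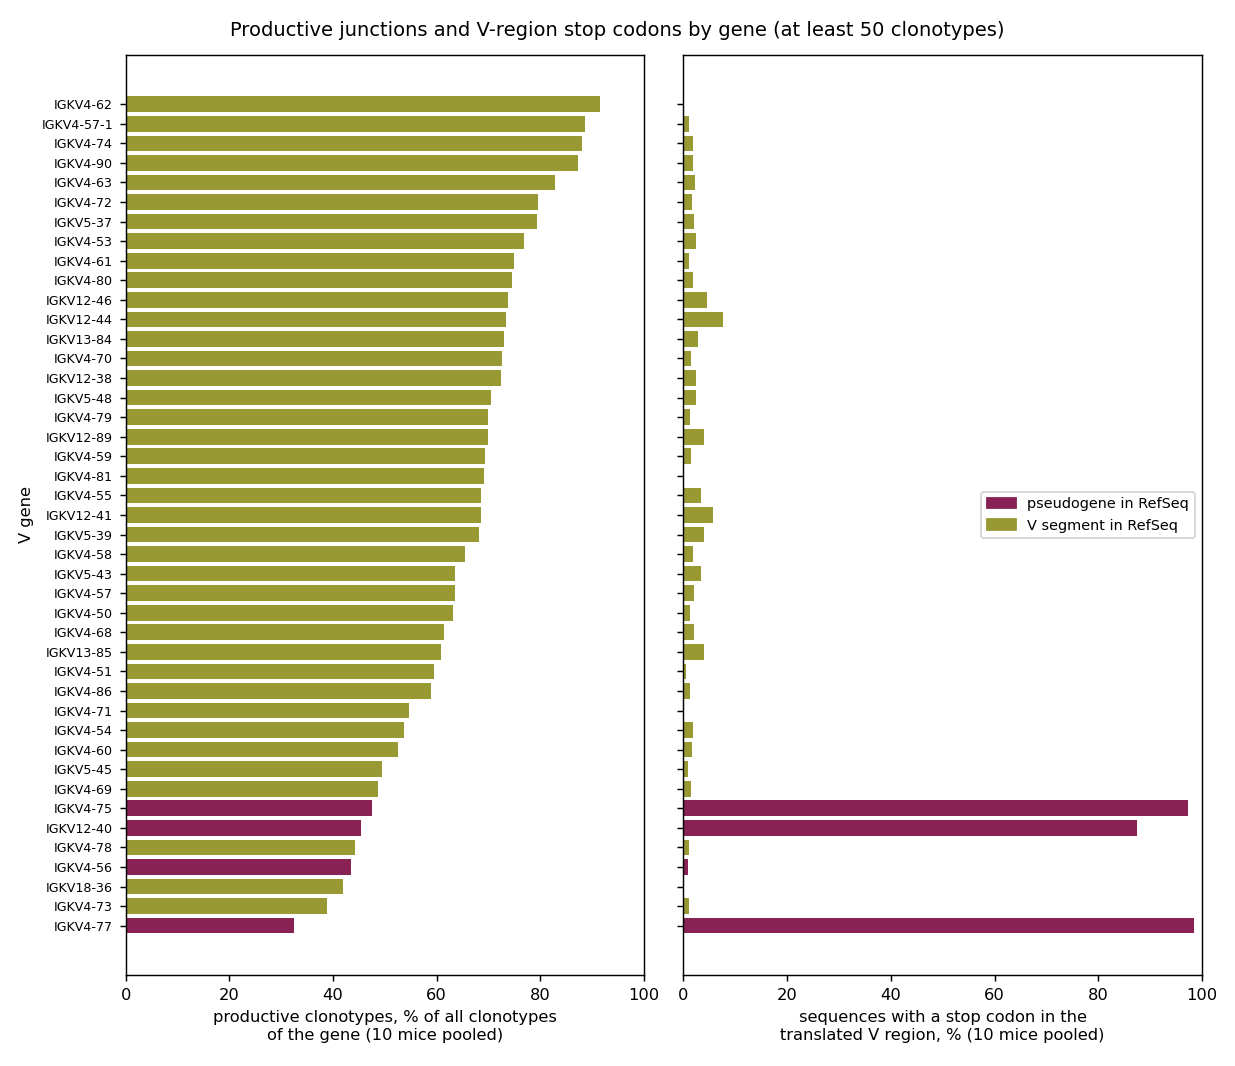
Productive share of the clonotypes (left panel) and share of sequences with a stop codon in the V region (right panel), both in percent. Values are pooled over the mice, for the 43 member genes with at least 50 clonotypes, sorted by productive share. The colours are the RefSeq gene types. IGKV4-77 has the lowest productive share (32.5%) and a V-region stop in 98.5% of its sequences, and the V segment IGKV4-73 (38.8%) has nearly as low a share with few stops (1.13%).

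Within each mouse the member clonotypes were compared with all other kappa clonotypes, by a two-sided exact sign-flip permutation test over the 10 mice with adjustment over 9 measures. The smallest p this test can give is 0.00195. Each p measures how a difference repeats over these mice and their libraries, not the spread between genes. Members were more often productive: 67.0% ± 3.87 against 63.3% ± 3.56 (SD, n = 10), a difference of 3.76 percentage points that was positive in 10 of 10 mice (exact permutation p = 0.00195, adjusted p = 0.00352). By zone the others had 66.3% (position 1 to 35), 61.9% (position 91 and up) and 56.5% (IGKV1). The difference was 0.786 points, with an adjusted exact p of 0.248, when clonotypes more abundant in another mouse were left out. It was 0.982 points weighted by counts (adjusted exact p = 0.141) and 1.60 over distinct sequences (adjusted exact p = 0.0615). It did not pass the test under any of these 3 settings.

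J genes were not used alike. Here and for CDR3 length, the other kappa clonotypes are pooled and not split by zone. Members used J1 in 25.8%, J2 in 27.0%, J4 in 18.9% and J5 in 28.3% of productive clonotypes, and 0 clonotypes used J3. J2 was less frequent than in the other kappa clonotypes, 27.0% ± 1.11 against 31.6% ± 1.70, lower in 10 of 10 mice (difference -4.58 points, exact permutation p = 0.00195, adjusted p = 0.00352). J5, the J gene farthest from the V genes, was more frequent, 28.3% ± 1.90 against 24.9% ± 1.83. It was higher in 9 of 10 mice, by 3.42 points (exact permutation p = 0.00781, adjusted p = 0.0117), and anti-CTLA-4 mouse 3 was the exception with -1.65 points. In isotype mouse 1 the J5 share of 28.6% has a Wilson 95% interval of 26.1% to 31.1%. J4 (1.09 points, adjusted exact p = 0.0804, higher in 8 of 10 mice) and J1 (0.0801 points, adjusted exact p = 0.896, higher in 4 of 10 mice) did not pass. J4 passed when isotype mouse 1 (1.33 points, adjusted exact p = 0.0301) or anti-CTLA-4 mouse 1 (1.29 points, adjusted exact p = 0.0452) was left out.

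The J5 difference was 3.88 points when clonotypes more abundant in another mouse were left out and 4.24 points over distinct sequences, and passed under neither (adjusted exact p = 0.188 and 0.163). For J2 the same settings gave -7.40 and -7.04 points, and it passed under both. Weighted by counts, neither passed: J5 differed by 7.19 points (adjusted exact p = 0.437, n = 10) and J2 by -3.76 points (adjusted exact p = 0.519, n = 10). Non-productive clonotypes, which encode no whole chain, showed both differences too. There J5 made up 34.0% ± 1.86 and J2 22.1% ± 1.27 of member clonotypes, and J5 exceeded the other kappa clonotypes by 8.96 points (adjusted exact p = 0.00251, n = 10). The difference in J2 was -3.71 points (adjusted exact p = 0.00251, n = 10), and that in J4 turned to -3.54 points.

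**Figure D3:**
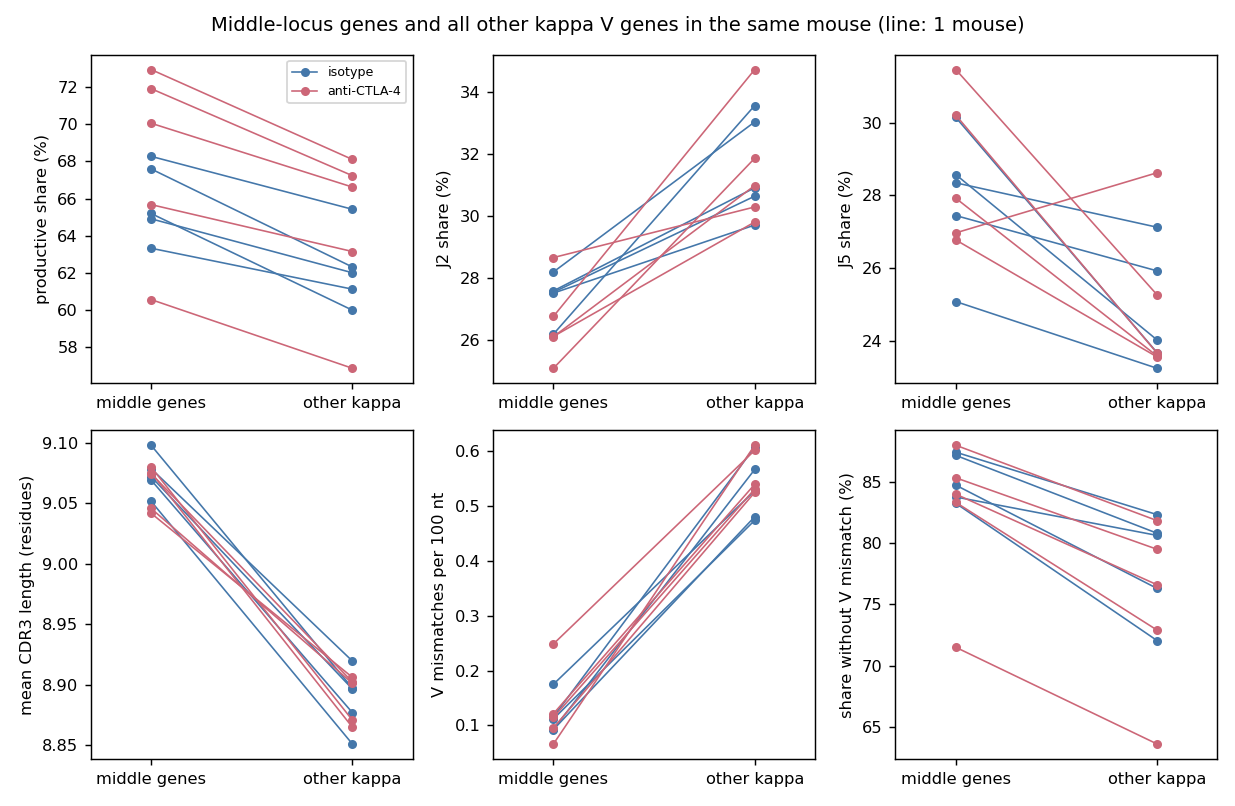
Values of the middle-locus clonotypes and of all other kappa clonotypes in each mouse, joined by a line per mouse and coloured by group; the panels are the productive share, the J2 share, the J5 share (percent of clonotypes), the mean CDR3 length (residues), V mismatches per 100 nt and the share without a V mismatch (percent). Lines slope the same way in all 10 mice in every panel but that of J5, where anti-CTLA-4 mouse 3 goes the opposite way.

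J use also varied between families and genes. IGKV18, with 34 productive clonotypes, had 38.2% J5 and 11.8% J1 pooled over mice and was not ranked. Of the other families, IGKV5 had the highest J5 share (32.2% ± 6.68, SD, n = 10) and the lowest J1 share (19.4% ± 3.46). IGKV12 had the lowest J5 share (22.8% ± 2.35) and the highest J1 share (33.0% ± 3.84). IGKV4 stood between them with 29.7% ± 2.21 J5. Among genes with at least 500 clonotypes, J5 ranged from 18.0% in IGKV12-46 to 35.5% in IGKV5-43. Over mice these were 18.6% ± 4.41 and 34.1% ± 12.6, and IGKV5-43 spanned 20.5% to 62.8%. Over the 34 genes compared, J5 share and position number gave a correlation near 0 (Pearson r = -0.0048, Spearman rho = -0.017, across genes, which share their libraries and are not independent).

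J1 was almost missing from a pair of neighbouring genes, singled out here after their values were seen. IGKV4-62 had 0 J1 clonotypes of 106, in frame or not, which allows a share of up to 2.83% if the clonotypes are independent. Of its productive clonotypes, 41.2% were found in all 10 mice, so that limit may be too low. IGKV4-63 had 1 of 209 (0.478%), in 1 of 10 mice. The others of the 40 member genes with at least 100 clonotypes had J1 in 13.4% (IGKV5-48) to 38.5% (IGKV12-89) of clonotypes. Both genes had J2 and J5 instead: 37.1% and 47.4% of the productive clonotypes of IGKV4-62, and 41.6% and 34.7% of those of IGKV4-63. Outside the limits of the rule, IGKV4-92 (2.27%) and IGKV4-91 (3.44%) were the lowest of 53 other kappa genes. Junctions like that of IGKV4-62 were also called IGKV4-57-1, which had J1 in 29.3% of its productive clonotypes, and how the aligner divided such sequences was not tested.

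CDR3 length was held closely. The mean length was 9.07 ± 0.0173 residues in members and 8.89 ± 0.0215 in other kappa clonotypes (SD, n = 10), longer by 0.180 residues in 10 of 10 mice (exact permutation p = 0.00195, adjusted p = 0.00352). Lengths of 9 residues made up 58.1% ± 3.80 against 58.9% ± 3.92, a difference of -0.834 points that did not pass (adjusted exact p = 0.310, lower in 6 of 10 mice). Members had more of the longer loops, 17.1% against 12.5% with 10 residues and 6.11% against 2.90% with 11. They had fewer short ones, 14.6% against 20.7% with 8 residues and 3.17% against 4.13% with 7. Weighted by counts, 95.3% ± 2.46 of the member chains and 89.3% ± 3.91 of the others had 9 residues, a difference that turned to 6.09 points and passed (adjusted exact p = 0.0264, n = 10). With the same weights the difference in mean length was 0.0720 residues, which still passed (adjusted exact p = 0.0264, n = 10). Between the V and J alignments there was no base in 86.7% ± 1.49 of member clonotypes and in 83.0% ± 1.40 of the others. In CDR3s of 9 residues, residue 7 was proline in 90.4% ± 1.18 of member clonotypes and 89.3% ± 1.23 of the others. This proline, encoded by the end of most kappa V genes, bends the loop.

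Mean CDR3 length differed between genes, and the gene means formed a continuous run. IGKV4-80 had a mean of 8.10 ± 0.131 residues over mice (SD, n = 10), with 19.3% of its clonotypes at 7 residues and 38.2% at 8. IGKV4-70 (8.28 residues pooled over mice), IGKV4-69 (8.37) and IGKV4-86 (8.65) were also short. IGKV4-50 (9.51 ± 0.138), IGKV4-74 (9.46 ± 0.0834), IGKV4-72 (9.41 ± 0.151) and IGKV4-59 (9.40 ± 0.0955) were long, and IGKV4-50 had 16.9% of its clonotypes at 11 residues. The highest mouse of IGKV4-80 (8.31) lay below the lowest mouse of each of these 4. By family, IGKV4 had a mean of 9.15 ± 0.0236 residues, IGKV5 9.00 ± 0.0283, IGKV12 8.92 ± 0.0394 and IGKV13 8.84 ± 0.0759.

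**Figure D4:**
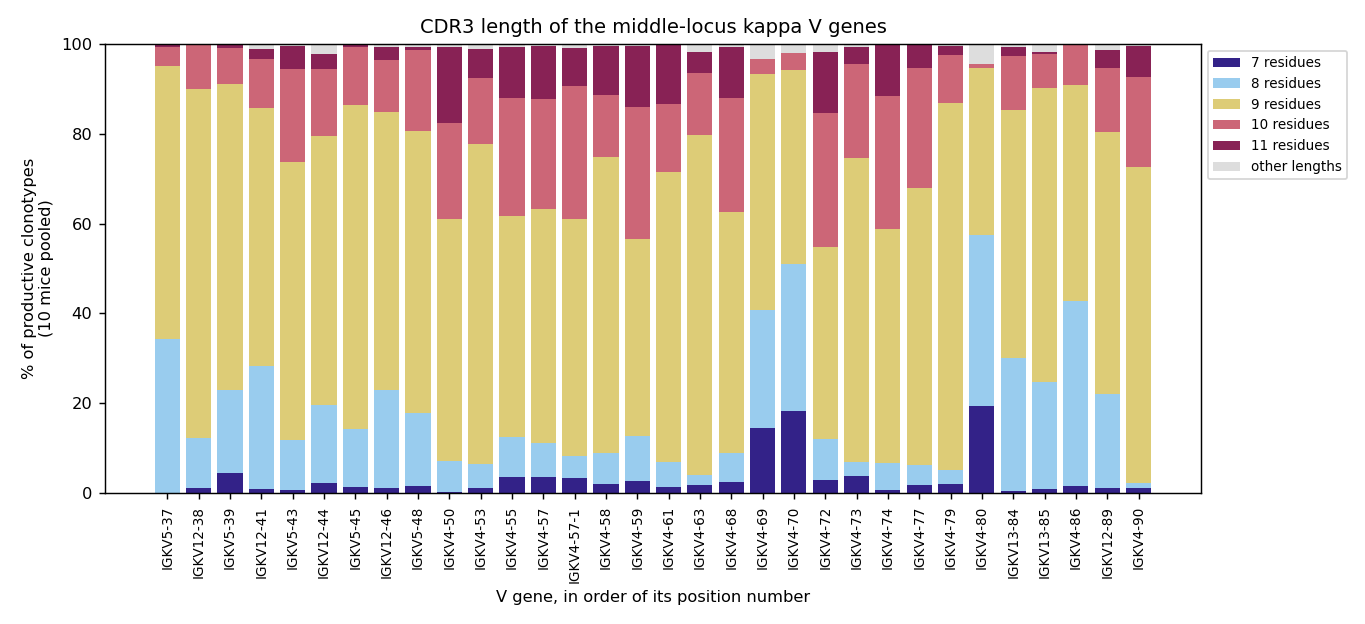
Share of productive clonotypes, in percent and pooled over mice, with a CDR3 of 7, 8, 9, 10 or 11 residues in each of the 32 member genes with a mean of at least 1%, in order of position. IGKV4-69, IGKV4-70 and IGKV4-80 have the largest shares at 7 residues (14.5%, 18.3% and 19.3%), and IGKV4-50 the largest at 11 (16.9%).

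Most member clonotypes matched their germline gene in their best supported sequence, the one with the highest count. Mismatches were counted in that sequence alone, over the V alignment before the junction, where somatic hypermutation in germinal centres changes bases. Members had 0.123 ± 0.0522 mismatches per 100 nt per clonotype against 0.546 ± 0.0494 in other kappa clonotypes (SD, n = 10), a difference of -0.423 that was negative in 10 of 10 mice (exact permutation p = 0.00195, adjusted p = 0.00352). By zone the values were 0.230 (position 1 to 35), 1.11 (position 91 and up) and 0.107 (IGKV1), so that IGKV1 was not above the members. The share without a mismatch was 83.8% ± 4.68 against 76.7% ± 5.83, higher by 7.19 points in 10 of 10 mice (exact permutation p = 0.00195, adjusted p = 0.00352). Without V calls whose median clonotype had a mismatch, a setting chosen after the data were seen, the differences were -0.340 per 100 nt and 5.82 points, and both passed. Weighted by counts they were -0.0572 per 100 nt and -1.87 points, and neither passed (adjusted exact p = 0.305 and 0.645, n = 10). With each clonotype weighted by its number of distinct sequences they were -0.247 and 3.15. With mismatches counted into the junction the second was 2.72 points. These passed.

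Of the families other than IGKV18, IGKV4 had the highest share without a mismatch (86.6% ± 4.95, SD, n = 10). IGKV13 had 83.7% ± 7.56, IGKV5 80.5% ± 7.99 and IGKV12 77.7% ± 6.27, and these families' spreads overlapped. IGKV18, with 34 productive clonotypes, had 94.1% pooled over mice. Among genes with at least 500 productive clonotypes, IGKV5-43 (0.266 per 100 nt) and IGKV12-44 (0.263) had the most mismatches and IGKV12-41 (0.0774) the fewest. Genes with fewer productive clonotypes reached lower values, such as IGKV4-70 (0.0441) with 404 and IGKV4-80 (0.0650) with 435.

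The largest clonotypes carried the counts. In isotype mice 1 to 5 the largest member clonotype held 31.6%, 9.88%, 9.96%, 48.7% and 21.7% of member counts. In anti-CTLA-4 mice 1 to 5 it held 71.2%, 16.3%, 13.5%, 11.7% and 32.2%, and the groups overlapped. The IGKV4-55 clonotype of anti-CTLA-4 mouse 1 had a count of 129768, or 35.6% of all productive kappa counts of that mouse. Its highest count in any other mouse was 4614. The 10 largest together held 68.7%, 38.8%, 43.1%, 72.2% and 54.4% of member counts in the isotype mice, and 91.1%, 54.1%, 63.1%, 41.4% and 65.7% in the anti-CTLA-4 mice.

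The best supported sequence of the leading clonotype matched germline V in 9 of 10 mice. The exception was isotype mouse 4, in which the IGKV12-44 clonotype (count 68739) had 2 V mismatches. The same rearrangement led in isotype mouse 5 with a count of 14131 and 0 V mismatches in its best supported sequence. Both mice had IGKV12-44 as their highest gene by count. In anti-CTLA-4 mouse 1, the clonotype with the next highest count was one of IGKV4-63 with J5 (count 23735, 13.0% of member counts).

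J5 use by deposited count did not overlap between the groups, unlike J5 use by clonotype, but its difference did not pass the test. By clonotype, J5 made up 28.6%, 30.1%, 28.3%, 27.4% and 25.1% in isotype mice 1 to 5 and 31.5%, 30.2%, 27.0%, 27.9% and 26.8% in anti-CTLA-4 mice 1 to 5, which overlap. By count J5 made up 16.5%, 29.0%, 31.0%, 12.3% and 15.6% in the isotype mice and 88.7%, 37.2%, 35.7%, 40.4% and 46.4% in the anti-CTLA-4 mice, with no overlap. The difference of 28.8 points had an exact permutation p of 0.00794, the smallest that 5 against 5 mice can give, and an adjusted p of 0.0595 over 10 measures, so it did not pass. J2 by count was lower after anti-CTLA-4 by 24.6 points (exact permutation p = 0.0159, adjusted p = 0.0595), at 19.9%, 29.7%, 30.9%, 60.6% and 54.2% against 3.32%, 14.7%, 24.8%, 16.8% and 12.8%. For J2 the groups overlapped in isotype mouse 1 and anti-CTLA-4 mouse 3. J1 by count differed by -8.998 points (exact permutation p = 0.159, adjusted p = 0.265) and J4 by 4.785 points (exact permutation p = 0.437, adjusted p = 0.624).

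These count shares rest partly on single clonotypes. Without the largest member clonotype of each mouse, a setting chosen after the values were seen, J5 by count was 24.1%, 32.1%, 34.4%, 24.1% and 19.9% in the isotype mice and 60.7%, 44.5%, 41.2%, 32.5% and 20.9% in the anti-CTLA-4 mice. The groups then overlapped. J2 by count was then 29.1%, 32.9%, 34.3%, 23.2% and 41.5% against 11.5%, 17.6%, 13.1%, 19.0% and 18.8%, without overlap. In the other kappa clonotypes J5 by count was 21.4%, 18.6%, 33.8%, 36.2% and 20.8% in the isotype mice and 37.7%, 20.2%, 49.3%, 25.6% and 17.2% in the anti-CTLA-4 mice, and overlapped.

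**Figure D5:**
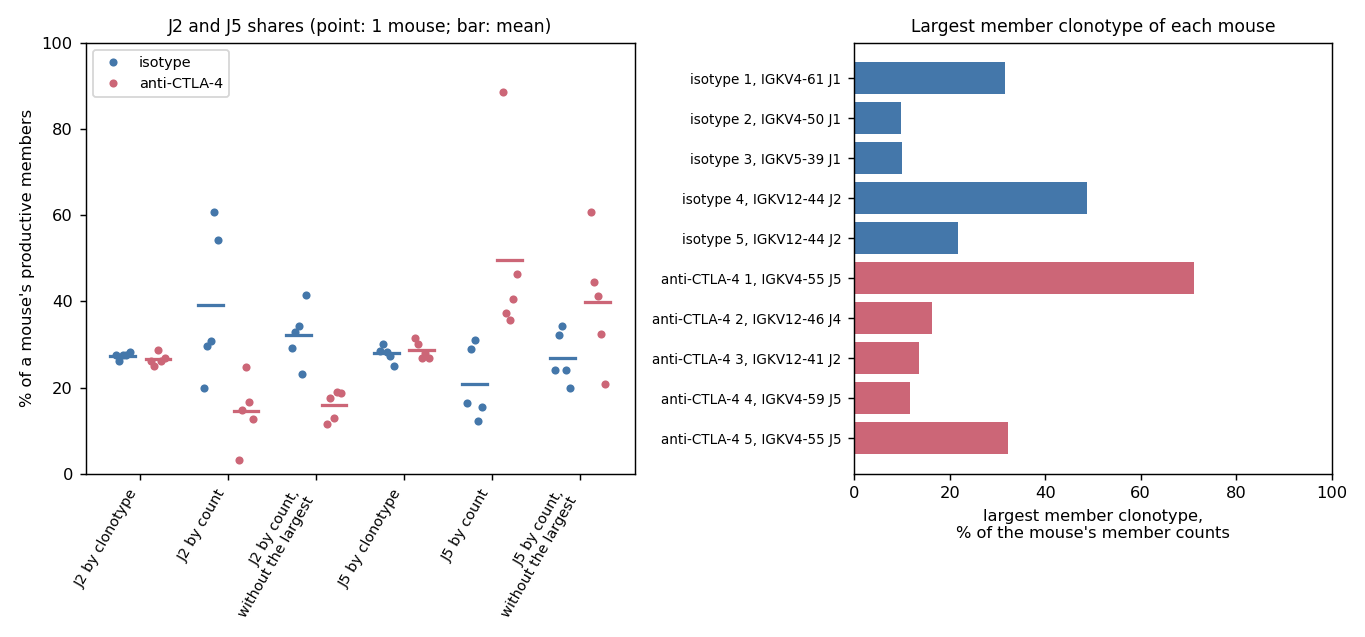
J2 and J5 shares of the productive member chains in each mouse by clonotype, by deposited count and by count without the largest member clonotype, with a point per mouse and a line at the group mean (left), and the share of member counts held by the largest member clonotype of each mouse as bars (right), all in percent and coloured by group. By clonotype the groups lie together, by count J5 is 12.3% to 31.0% in isotype mice and 35.7% to 88.7% in anti-CTLA-4 mice, and without the largest clonotype the J5 shares overlap.

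For mismatches by count, the whole count of a clonotype was scored by its best supported sequence. The share of member counts on clonotypes without a V mismatch in that sequence was 82.2%, 87.2%, 95.3%, 47.6% and 88.1% in isotype mice 1 to 5. In anti-CTLA-4 mice 1 to 5 it was 97.6%, 94.3%, 99.3%, 97.6% and 93.8%. The difference of 16.5 points did not pass (exact permutation p = 0.0238, adjusted p = 0.0595). Isotype mouse 4, with its mismatched IGKV12-44 clonotype, was the lowest, and isotype mouse 3 overlapped with the anti-CTLA-4 group. Without the largest clonotype of each mouse these shares were 74.0%, 85.8%, 94.8%, 92.8% and 84.7% against 91.7%, 93.2%, 99.2%, 97.3% and 90.8%.

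By clonotype, none of 10 measures of the members passed the test between groups, and the smallest adjusted p of the exact permutation test was 0.714. The productive share was 65.9% ± 2.04 in isotype and 68.2% ± 5.11 in anti-CTLA-4 mice (difference 2.37 points). The mean CDR3 length was 9.07 ± 0.0167 and 9.06 ± 0.0182 residues, and mismatches per 100 nt were 0.118 ± 0.0338 and 0.129 ± 0.0700 (SD, n = 5 each). The share of counts in the 10 largest clonotypes was 55.5% ± 14.9 and 63.1% ± 18.3, a difference of 7.64 points within the spread of either group. The differences between members and other kappa genes were not shown to depend on treatment, since the smallest adjusted p of the exact permutation test of that interaction was 0.865 over 9 measures.

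Genes next to the limits of the rule had these shares of productive kappa clonotypes. Just inside were IGKV18-36 with 0.0984% and IGKV5-37 with 0.414% at the lower limit, and IGKV12-89 with 0.790% and IGKV4-90 with 0.519% at the upper one. Just outside were IGKV8-34 with 0.321% and IGKV1-35 with 0.00766%, and IGKV4-91 with 1.34% and IGKV4-92 with 0.442%.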

How the data were processed

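For each mouse the authors deposited a table of sequences in AIRR format, per the file headers, giving V and J calls, the germline alignment, the junction, lengths in nucleotides and, for each sequence, a whole-number count. The counts deposited by the authors showed no normalisation, and their totals differed between mice. Libraries were made with a mouse B cell receptor kit that adds molecular identifiers, per the labels' protocols. Which aligner, germline set and genome build were used, and how the identifiers were handled, is not given in the sources used here, so a count is called the deposited count.

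Sequences without a junction (0.530% to 1.65% of member sequences) were left out. A clonotype is a V call without allele, a J call and a junction in 1 mouse, with its sequences' counts summed. Mismatches were counted before the junction over alignments of at least 200 nt, in the highest-count sequence of each clonotype. A clonotype's other sequences did not enter the mismatch measures. The listed number of added bases disagreed with the alignment ends in 15.6% of productive member clonotypes, so the ends were used.

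Clonotype numbers per V call were tested with edgeR 4.0.16 (quasi-likelihood, TMM, filterByExpr) over all kappa V calls and with DESeq2 1.42.0, with Benjamini-Hochberg adjustment at 0.05 (R 4.3.3). Measures per mouse were tested with two-sided exact permutation tests over 252 reassignments of mice, or 1024 sign flips within mice (Python 3.11.15, scipy 1.17.1). The edgeR test was checked on simulated data with 20 of 90 V calls changed, in 5 draws. It recovered a mean of 10.8 of the 20 at a 1.5-fold change and 18 at a 2-fold change, so smaller changes can be missed. The shares of all members in kappa clonotypes and counts have no test. Wilson intervals have a level of 95%, and the limit for a count of 0 is 3 counts. Both cover counting error only.

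The members, lists and measures were chosen with earlier results of these data known. Genes are named where they had at least 1% of member clonotypes, an adjusted p under 0.05 or one of the 3 smallest p in each direction, the largest clonotype of a mouse, a place next to a limit, or the highest or lowest J5 share, CDR3 length, mismatches or productive share among genes with at least 500 clonotypes (all clonotypes for the productive share, otherwise productive ones). The other genes named were chosen after their values were seen. Alternatives were counts, a count of at least 2, amino acid CDR3s, distinct sequences, non-productive clonotypes, medians, other alignment limits, single V calls alone, clonotypes not seen at more counts elsewhere, other normalisation and filters, and each mouse left out. Deviations of same-numbered mice of the groups correlated between -0.109 and 0.0060 over 90 V calls, so the numbers were not taken as pairs.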

Additional observations from a re-analysis of the deposited data

Results flagged for a closer look

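In groups of 5 mice, the highest or lowest value was compared with the nearest of the others. Chance sets apart about 1 in 20 groups, and 8 of the 90 groups examined had such a mouse. Isotype mouse 5 had a J4 share of 19.8% of member clonotypes, with the next at 18.6%. Isotype mouse 1 had 0.175 V mismatches per 100 nt, with the next at 0.116. Anti-CTLA-4 mouse 2 had the lowest share of member clonotypes without a V mismatch, 71.5%, with the next at 83.3%.

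The other 5 were gene shares of the member clonotypes. IGKV4-50 made up 3.26% in isotype mouse 2 (next 2.37%), the mouse whose largest member clonotype used that gene. IGKV4-55 made up 7.62% in isotype mouse 1 (next 5.27%). IGKV4-63 made up 3.52% in anti-CTLA-4 mouse 1 (next 1.25%), the mouse with an IGKV4-63 clonotype at 13.0% of member counts. IGKV4-73 was lowest in isotype mouse 2 at 0.950% (next 1.27%), and IGKV12-89 highest in isotype mouse 3 at 2.77% (next 2.20%). The causes were not tested.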

How the results depend on the processing

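The call of 0 kappa V genes between the groups held under all 20 alternatives, and the smallest edgeR or DESeq2 adjusted p was 0.149 over all calls and 0.252 among members. Below, differences are in percentage points unless stated, for anti-CTLA-4 minus isotype mice (between groups) or members minus other kappa genes (within mice). The causes were not tested.

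With deposited counts as weights, the group differences turned to -0.311 in productive share, -0.215 in 9-residue CDR3s and -0.127 mismatches per 100 nt. Clonotypes without a mismatch turned to 16.5, and the share of kappa moved to 3.38. Within mice, J1 turned to -8.70, 9-residue CDR3s to 6.09 (which passed) and clonotypes without a mismatch to -1.87. Productive share (0.982), J2 (-3.76), J5 (7.19) and mismatches (-0.0572) no longer passed there. IGKV4-58 turned to a log2 fold change of 0.47 and IGKV4-86 to -0.0065. With a count of at least 2, the group difference in CDR3 length turned to 0.0015 residues, and within mice J1 to -0.256 and 9-residue CDR3s to 1.36. With amino acid CDR3s, J1 turned to -0.991 and J4 passed at 1.73. With clonotypes more abundant in another mouse left out, the 10 largest turned to -0.943 between groups, and productive share (0.786) and J5 (3.88) no longer passed. By medians, CDR3 length and mismatches differed by 0. Among non-productive clonotypes, J2 turned to 0.873 and J4 to -0.127 between groups, and J1 to -1.71 and J4 to -3.54 within mice. Over distinct sequences, a setting chosen after the data were seen, IGKV4-58 turned to 0.13. Within mice J1 turned to -0.413, J4 passed at 3.22, and productive share (1.60) and J5 (4.24) no longer passed. There each sequence kept the mismatch value of its clonotype. Group differences in that setting turned to -0.0250 mismatches per 100 nt and 2.55 in sequences of clonotypes without a mismatch.

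With 1 mouse left out at a time, the group differences ran from -0.694 to 0.226 in J1 and from -0.011 to 1.11 in J4, both turning without anti-CTLA-4 mouse 3, and from -0.018 to 0.027 mismatches per 100 nt, turning without anti-CTLA-4 mouse 2. Within mice, J1 ran from -0.315 to 0.297 and J4 from 0.634 to 1.33. With the mouse number as a replicate block, 0 genes were called (smallest edgeR adjusted p = 0.920), the smallest adjusted exact p of the 10 measures was 0.703, no pairing is stated in the labels, and 0 mice correlated best with their own number. That test cannot give a p under 0.0625. Depth limits the rare genes: 21 member calls fell below the filter and were not tested.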
